A study of Mus musculus with 8 samples.

Results

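Narrow regions bound by ALKBH5 without its C-terminal disordered region, and not listed for the full-length protein, were examined in mouse embryonic stem cells. ALKBH5 removes N6-methyladenosine, a methyl mark on RNA, and acts mainly in the nucleus. Its catalytic core is flanked by intrinsically disordered regions, stretches with no fixed fold, and the series title puts forward that such regions restrain where demethylases act. Binding was read by eCLIP, in which UV light crosslinks a protein to the RNA it touches before immunoprecipitation. A peak is a stretch where the sequenced fragments pile up above the background set by the peak caller.

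The peaks of the 4 immunoprecipitate lists were joined where they shared 1 bp or more, which gave 43029 regions. A region was a member when it held a peak in both del-cIDR lists, in neither full-length list, and was 320 bp wide or less. There were 2605 members, which is 6.05% of all regions and 34.2% of the 7609 del-cIDR-only regions of any width (those made up 17.7% of all regions). The presence and absence of peaks and the width thus chose the members, and these are given as a description. "Not listed" means that no peak passed the authors' limit, not that no RNA was bound. In such bulk samples, fewer cells with binding and less binding per cell cannot be told apart.

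The cells were E14TG2a, a male mouse embryonic stem cell line, cultured with LIF, PD0325901 and CHIR99021. Wild-type cells carried endogenous full-length ALKBH5, and the other cells carried endogenous ALKBH5 lacking its C-terminal disordered region (genotype Alkbh5 del-cIDR). Each genotype had an immunoprecipitate and an input in 2 replicates, 8 samples in all, and all were crosslinked and their nuclei isolated. The peak lists of the 4 immunoprecipitates were used, and the inputs were not analysed here. Whether the altered cells were 1 clone, or the replicates separate cultures, is not in the labels, so any spread covers only these samples. No p-values are given, and the intervals cover counting only. Peak lists hold no level of ALKBH5 or of stem cell markers, so neither genotype nor cell type could be checked.

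The lists held 16636 to 19892 peaks each, and the reads behind them are unknown. The narrowest peak of a list was 300 and 301 bp in del-cIDR replicates 1 and 2, and 297 and 243 bp in full-length replicates 1 and 2. Peaks of 320 bp or less made up 48.0% and 45.2% of the del-cIDR lists and 30.8% and 59.0% of the full-length lists. The full-length values lay on both sides of the del-cIDR values, so the genotypes did not separate by this share. Members held 14.8% and 13.8% of the peaks of the del-cIDR lists. Positions are in GRCm39. Genes, transcript features and sequence at the members were not analysed here, since the annotation and promoter sequences used here as reference are on another build.

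Most members had the smallest width that 2 del-cIDR peaks can give. Of the 2605, 1942 (74.5%) were 301 bp wide and 2299 (88.3%) were 303 bp or less. Every member consisted of exactly 1 peak from each del-cIDR list. Both peaks had the minimum width of their list in 1934 members (74.2%). Past that point the widths thinned out without a break at the limit. There were 20 members of 319 bp and 12 of 320 bp, and 15 del-cIDR-only regions each of 321 and 322 bp.

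The widest members and the narrowest regions past the limit had similar values. At 320 bp, chr5:32778873-32779192 had fold enrichments of 2.51 and 2.30 in del-cIDR replicates 1 and 2, where fold enrichment is the authors' ratio of a peak to its background in peak calling. The member chr17:6895840-6896159 had 6.91 and 5.19, and chr1:131855928-131856247 had 2.75 and 3.10. At 321 bp, chrX:105059448-105059768 had 4.12 and 4.45, chr6:143140936-143141256 had 2.44 and 2.22, and chrX:8008219-8008539 had 2.80 and 3.09. The ranges on either side of the limit overlapped.

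The peaks of the 2 del-cIDR replicates coincided to the base at most members. An end was called shared only where the coordinates were identical. The width limit lets a replicate 1 peak reach up to 19 bp past a replicate 2 peak of minimum width, and it does not require a shared end. Of the 1934 members with both peaks at minimum width, 993 had the same start in both replicates and a different end, and 921 had the same end and a different start. Only 20 shared neither. A shared end was thus found in 99.0% of them (exact 95% binomial interval 98.4 to 99.4%, for counting of regions only). Since the minimum widths are 300 and 301 bp, these peaks could not share both ends.

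Starts and ends were shared about equally often. Of the members sharing 1 end, 51.6% shared the start (exact 95% binomial interval 49.5 to 53.6%). Among the 671 members with a wider peak, 364 shared an end (54.2%), of which 36 shared both. In all, 2278 members (87.4%) had a base at which both del-cIDR peaks began or ended.

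**Figure D1:**
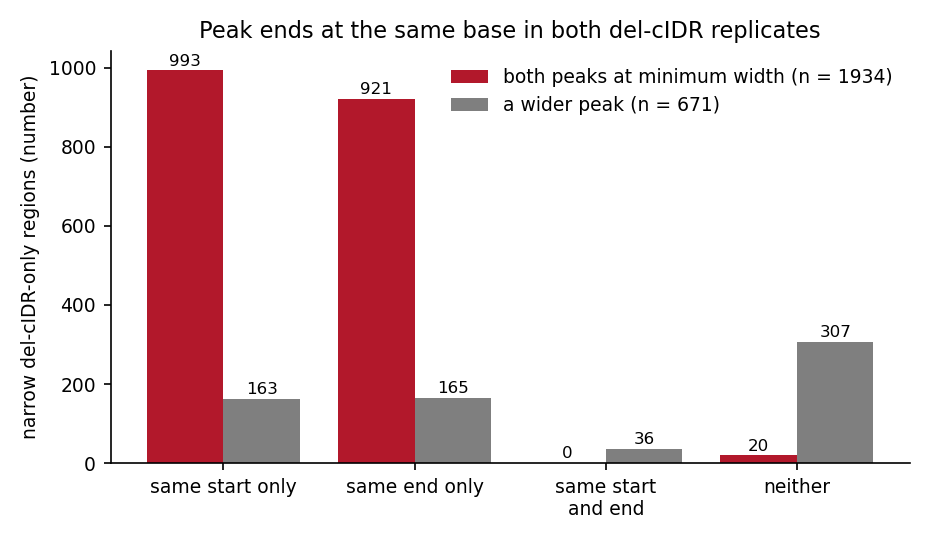
Number of narrow del-cIDR-only regions by whether the peaks of del-cIDR replicates 1 and 2 begin or end at the same base, for regions with both peaks at minimum width (red) and with a wider peak (grey). Red regions share the start (993) or the end (921) and 20 share neither, whereas 307 grey regions share neither.

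No clear run of the same kind of shared end was seen along the chromosome. For members that shared exactly 1 end, each was set beside the next such member on the same chromosome. Of 208 neighbours 10 to 100 kb apart, 107 had the same kind of shared end (51.4%, exact 95% binomial interval 44.4 to 58.4%). Of 30 neighbours within 10 kb, 13 did (43.3%, interval 25.5 to 62.6%). The shares of the 2 kinds alone would give 50.05%, which lies inside both intervals. The intervals are wide and consecutive pairs can share a member, so a weak run could be missed. All 6 members of the 1 Mb window described below shared the start.

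Summits, the highest points of the peaks, agreed less well than the ends. The distance between the summits of the 2 replicates had a median of 47.0 bp (quartiles 4 and 95 bp, highest 289 bp). The summit was at the same base in 180 members (6.91%) and within 5 bp in 694 (26.6%), and lay over 100 bp apart in 609 (23.4%). Members that shared the start had a median distance of 49.0 bp, and those that shared the end 55.5 bp. The 327 members that shared neither end had closer summits, with a median of 17.0 bp. The summits thus moved within peaks whose ends stayed in place.

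Members were more strongly enriched than the other peaks of the same lists. The median fold enrichment was 5.77 in replicate 1 (quartiles 4.03 and 8.41) and 5.84 in replicate 2 (quartiles 4.08 and 8.72). The other peaks of these lists had medians of 3.01 and 2.99. Enrichment of 4-fold or more was given for 75.7% and 75.4% of member peaks, against 23.9% and 23.1% of the other peaks. Peaks of broader del-cIDR-only regions had medians of 2.75 and 2.82, below the lower quartile of the members in either list. Narrow regions found in all 4 lists, 1106 in number, had medians of 16.2 and 16.8, above the upper quartile of the members. The order was the same in both replicates. Members had to be called in both del-cIDR lists, whereas the other peaks include those found in a single list. With a peak required in only 1 del-cIDR list, the median enrichment was 3.77 without replicate 1 and 3.73 without replicate 2. The choice of members rests on the same peaks, so the contrast was not tested.

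Enrichment at a member was similar in both replicates. The values of the 2 replicates lay within a factor of 1.5 at 1885 members (72.4%) and within a factor of 2 at 2349 (90.2%). Replicate 2 was higher at 1352 members (51.9%). Across the 2605 members the Spearman correlation was 0.684, as a description over regions that share their libraries. Both peaks reached 4-fold at 1722 members (66.1%) and 10-fold at 286 (10.98%), and 68 members (2.61%) had a peak under 2-fold.

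**Figure D2:**
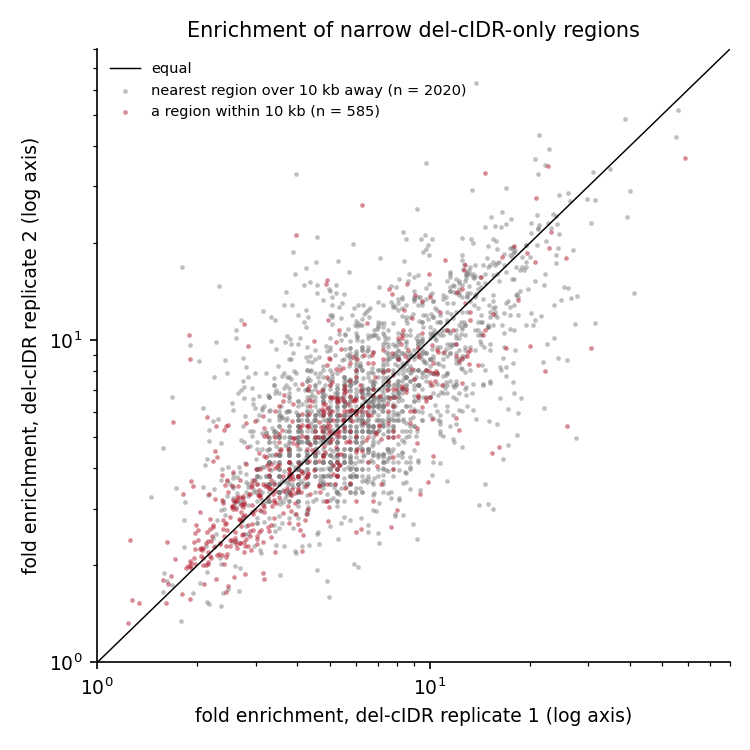
Fold enrichment of each narrow del-cIDR-only region in del-cIDR replicate 1 (horizontal) and replicate 2 (vertical), both on log axes, with the line of equality. Points in red, 585 regions, have another region within 10 kb, and the other 2020 in grey do not, and the red points reach further towards low enrichment.

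By −log10 q, which grows with both enrichment and the number of fragments, the median member stood somewhat above the middle of its list. The median member peak had −log10 q of 13.5 and 13.3 and stood at rank 6723 of 17584 and rank 7082 of 18841. The other peaks had medians of 9.92 and 9.51. Among the 500 best ranked peaks of each list, 50 and 46 were members, whereas members held 14.8% and 13.8% of all peaks of these lists. Narrow regions of all 4 lists, with 1106 peaks in each list, held 366 and 372 of the same 500.

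The members with the best mean rank included both weakly and strongly enriched ones. The first, chr8:52789740-52790048, had −log10 q of 5697 and 9741 with enrichments of 2.94 and 5.22, and no full-length peak lay within 106145 bp. Its equal in mean rank, chr19:4128024-4128326, had −log10 q of 5957 and 9271 with 2.43 and 3.55-fold enrichment, and a full-length peak of replicate 1 lay 9772 bp away. Both had very high significance, with enrichment below the median of all peaks in replicate 1 (3.17) and above it in replicate 2 (3.16). The member chr1:157906229-157906532 followed with 7.85 and 12.7-fold enrichment and ranks 41 and 38.

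The member chr13:68419153-68419460 combined rank and enrichment, with 24.6 and 21.4-fold and ranks 58 and 70. Its 2 peaks shared the start, their summits lay 3 bp apart, and the nearest full-length peak was 84434 bp away. After the mitochondrial member described below, which was the fifth, came chr1:44237886-44238190, with 6.43 and 12.2-fold enrichment, and chr9:28855670-28855970, with 12.5 and 10.4-fold. The nearest region of any kind to the latter was 255275 bp away and was a narrow one found in all 4 lists. The member chr15:80923882-80924184 differed between replicates, with 7.86 and 2.85-fold enrichment and ranks 50 and 260.

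The last of the 10 lay close to full-length peaks. Enrichment was 1.85 and 1.96-fold at chr17:23768962-23769272, which had a full-length peak 1205 bp away, and its 2 summits were at the same base. At chr3:96408503-96408820 it was 6.43 and 4.89-fold, with a full-length peak 749 bp away.

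Both members on the mitochondrial chromosome were weakly enriched. The one at bases 4819 to 5125 had 2.16 and 2.03-fold enrichment with ranks 90 and 137, and its summits lay 1 bp apart. The other, from 15083 to 15388, had 1.26-fold in replicate 1 and 2.40-fold in replicate 2, with ranks 1162 and 119, and a full-length peak lay 194 bp away. Neither shared an end between replicates. The lower enrichment of the second member was near the lowest of its list (1.23).

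Ranked by the lower of the 2 enrichments, the leading members had ranks from 302 to 749 by −log10 q, and 4 of the 5 had no other region within 10 kb. At chr2:13496343-13496643 enrichment was 56.0 and 51.9-fold, with −log10 q of 277 and 250.0, and the nearest full-length peak lay 64185 bp away. Chromosome 8 gave chr8:72791494-72791812, with 55.0 and 42.9-fold, and chr8:121498876-121499178, with 38.6 and 48.8-fold. At chr7:45245862-45246162 the values were 58.7 and 36.7-fold, and a full-length peak lay 6604 bp away. The fifth, chr15:4133204-4133506, had 34.9 and 34.1-fold. None of these 5 was among the 10 best ranked, and 3 of them shared an end between replicates.

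Members lay farther from full-length peaks than broader del-cIDR-only regions did. The nearest peak of either full-length list was at a median distance of 81586 bp (quartiles 25035 and 201496 bp). For the 5004 broader del-cIDR-only regions the median was 10832.5 bp, and their upper quartile, 30988 bp, was close to the lower quartile of the members. A full-length peak lay within 10 kb of 326 members (12.5%, exact 95% binomial interval 11.3 to 13.8%), against 48.3% of the broader regions (46.9 to 49.7%). Within 1 kb there was one at 56 members (2.15%), and within 100 kb at 1427 (54.8%). The median was 102613.5 bp to full-length replicate 1 alone and 121048.5 bp to replicate 2 alone. When peaks under 4-fold enrichment were left out it rose to 151798 bp, and it fell to 49471.5 bp with a width limit of 400 bp. With a peak required in only 1 del-cIDR list, the median was 38570 bp without replicate 1 and 40277 bp without replicate 2. In the opposite direction, narrow full-length-only regions lay at a median of 40175.5 bp from the nearest del-cIDR peak, with 27.6% within 10 kb. The difference of the members from the broader del-cIDR-only regions was not tested, since width and the absence of full-length peaks are part of the choice.

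The members nearest to a full-length peak all lay under 100 bp from one. At chr17:78485099-78485409 the gap was 25 bp, to a peak of 3.36-fold in full-length replicate 1, beside 3.46 and 4.44-fold in the del-cIDR replicates. The gap was 41 bp at chr2:128966941-128967242, where the full-length peak was 1102 bp wide. It was 64 bp at chr16:18071601-18071919, 86 bp at chr12:86931596-86931896, beside a full-length peak of 3412 bp, and 89 bp at chr2:51988013-51988330. Whether the signal ran on between the called peaks was not tested.

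At the other extreme, the 3 members farthest from a full-length peak were all on the Y chromosome, where peaks of every kind were sparse. Per 10 Mb spanned by peaks, the Y held 8.83 full-length and 4.20 del-cIDR peaks. The autosomal medians were 144.6 and 153.0. The gap to a full-length peak was 9425631 bp at chrY:58554422-58554723, 6607507 bp at chrY:74660374-74660674 and 2231285 bp at chrY:79036595-79036896. The enrichments of these members ranged from 6.50 to 11.99-fold over both replicates. Away from the Y chromosome, the gap was 1376462 bp at chr15:48414706-48415006, with 3.53 and 5.02-fold enrichment, and 1368404 bp at chr8:68297063-68297366, with 21.2 and 22.3-fold. A further member lay on the unplaced scaffold GL456210.1, from 92932 to 93232, where no other region was listed.

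Most members were isolated from peaks of every kind at 10 kb. No other region lay within 10 kb of 2020 members (77.5%, exact 95% binomial interval 75.9 to 79.1%), and none within 100 kb of 695 (26.7%). The same held within 10 kb for 10.6% of the broader del-cIDR-only regions (9.75 to 11.5%), 43.4% of the 851 narrow full-length-only regions (40.0 to 46.8%) and 81.3% of the narrow regions of all 4 lists (78.9 to 83.5%). The median gap to the nearest region was 38826.5 bp for members and 754.5 bp for the broader del-cIDR-only regions. Members were thus spaced much as the narrow regions of all 4 lists, and narrow full-length-only regions were less isolated than either. The minimum width was 243 bp in full-length replicate 2 against 300 and 301 bp in the del-cIDR lists. The part of this in the comparison was not tested. Overlapping peaks were joined, so the width limit itself bears on isolation, and the contrast with broader regions was not tested. With a limit of 400 bp, 60.4% of members were isolated. With a peak required in only 1 del-cIDR list it was 56.0% without replicate 1 and 58.1% without replicate 2.

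**Figure D3:**
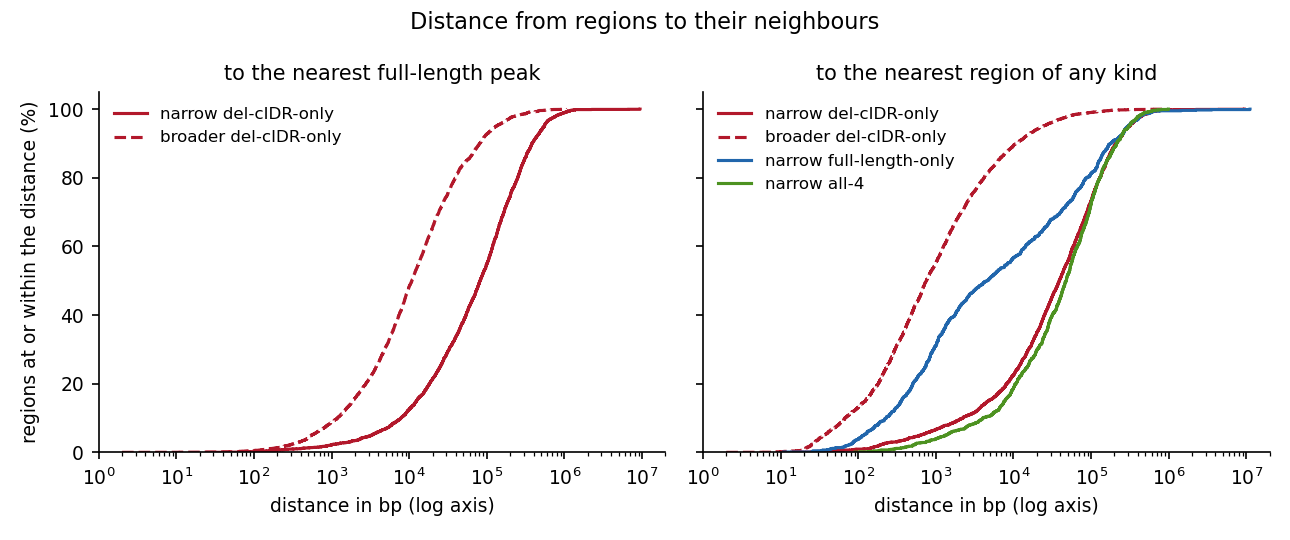
Cumulative percent of regions by distance in bp (log axis) to the nearest full-length peak (left) and to the nearest merged region of any kind (right), for narrow and broader del-cIDR-only regions and, on the right, narrow full-length-only and narrow all-4 regions. Median distances on the left are 81586 bp for narrow and 10832.5 bp for broader del-cIDR-only regions.

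The nearest region to a member was found in a single list at 1241 members (47.6%), against 52.8% of all regions. These were 411 members for full-length replicate 1, 113 for full-length replicate 2, 345 for del-cIDR replicate 1 and 372 for del-cIDR replicate 2. It was another member at 463 (17.8%), although members make up 6.05% of all regions. The other narrow classes were also nearest more often than their share of all regions. Narrow regions of all 4 lists were nearest at 172 members (6.60%, against 2.57% of all regions). Narrow full-length-only regions were nearest at 79 (3.03%, against 1.98%). The nearest region was a broader full-length-only one at 153 (5.87%) and a broader del-cIDR-only one at 170 (6.53%). These classes make up 15.6% and 11.6% of all regions. Members seldom lay next to each other all the same, since only 87 (3.34%) had another member within 10 kb, and the median gap between nearest members was 300537.5 bp.

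Peaks near the members are given per library as a description, since the choice of members used the same lists. A further del-cIDR peak lay within 10 kb of 12.4% of members in replicate 1 and 13.4% in replicate 2, and a full-length peak within 10 kb of 10.2% and 8.98%. Over replicates this came to 12.9% ± 0.706 for del-cIDR and 9.60% ± 0.869 for full-length (SD, n = 2 libraries each). The difference was 3.34 percentage points, and between 1.59 and 12.5 points with a library left out. Within 100 kb the shares were 49.1% and 49.8% for del-cIDR and 49.4% and 44.0% for full-length, and the genotypes overlapped. Around the broader del-cIDR-only regions, del-cIDR peaks lay within 10 kb of 59.3% and 64.0% and full-length peaks within 10 kb of 42.3% and 35.6%. The rule bars full-length peaks from overlapping the member itself, and no test is reported. When peaks under 4-fold enrichment were left out, the difference at 10 kb turned to -0.142 points.

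Median enrichment was higher in more isolated members, and their 2 peaks more often shared an end. Across members the relation was weak, with a Spearman correlation of 0.241 between mean enrichment and the gap to the nearest region. The 174 members with another region within 1 kb had median enrichments of 3.03 and 3.22-fold, and 54.0% of them shared an end between replicates (exact 95% binomial interval 46.3 to 61.6%). The 411 with the nearest region 1 to 10 kb away had 4.94 and 5.23-fold, and 78.8% shared an end (74.6 to 82.7%). The 1325 at 10 to 100 kb had 6.02 and 6.11-fold and 91.8% (90.2 to 93.3%). The 695 at over 100 kb had 6.27 and 6.34-fold and 92.5% (90.3 to 94.4%). The medians rose over the 4 classes in both replicates, and the last 2 classes were close. The −log10 q did not follow, with medians between 12.5 and 16.4 in every class. End sharing also went with width, at 99.0% where both peaks had minimum width and 54.2% with a wider peak. The part of width in the shares by isolation was not tested.

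Members were spread over the autosomes with little difference in density, and were sparser on the sex chromosomes. They were found on all 19 autosomes (2493 members), the X (103), the Y (6) and the mitochondrial chromosome (2). Chromosome 2 held the most, 203 members or 7.79%. Density was counted per 10 Mb between the first and last peak of a chromosome. It ran from 7.72 on chromosome 3 to 13.3 on chromosome 19, a 1.72-fold range with a coefficient of variation of 13.1% over the autosomes. Broader del-cIDR-only regions ran from 10.5 on chromosome 13 to 39.2 on chromosome 11, a 3.72-fold range with a coefficient of variation of 40.1%. On chromosome 11 there were thus 12.6 members against 39.2 broader regions per 10 Mb, and on chromosome 13 10.4 against 10.5. For narrow regions of all 4 lists the coefficient of variation was 11.3%.

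The sex chromosomes held fewer members than the autosomes. The X had 6.28 members per 10 Mb, 59.0% of the autosomal median of 10.6, and the Y 0.663. As background, a male line has a single X and a single Y chromosome, and the part of copy number in these densities was not tested. Narrow regions of all 4 lists stood at 46.8% of their autosomal median on the X, broader del-cIDR-only regions at 38.5% and narrow full-length-only regions at 93.9%. All del-cIDR peaks together stood at 43.2% and all full-length peaks at 55.8%. A low density on the X was therefore shared by most classes. Narrow full-length-only regions, with 3.05 against a median of 3.25 per 10 Mb, were the exception among these. On the Y, members stood at 6.23% of their autosomal median, all full-length peaks at 6.11% and all del-cIDR peaks at 2.74%. There, narrow regions of all 4 lists stood at 4.99%, broader del-cIDR-only regions at 1.05% and narrow full-length-only regions at 27.2%.

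**Figure D4:**
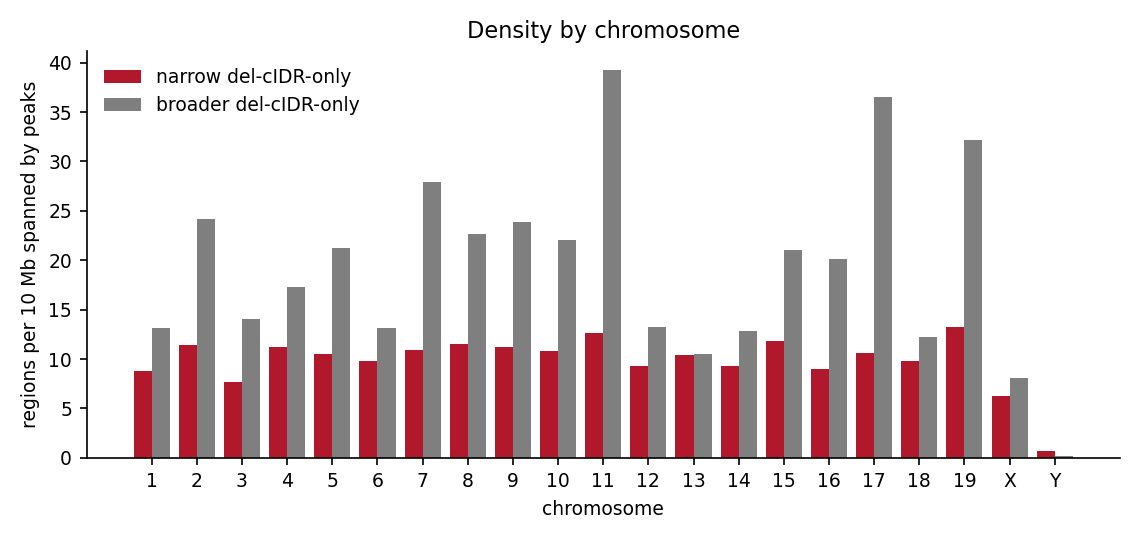
Narrow (red) and broader (grey) del-cIDR-only regions per 10 Mb on each chromosome, with length taken from the first to the last peak of the 4 lists. Red bars run from 7.72 to 13.3 on the autosomes and are 6.28 on the X, whereas grey bars run from 10.5 to 39.2 on the autosomes.

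Members were also scattered at a finer scale. Over 2575 windows of 1 Mb on the autosomes and the X, 1565 (60.8%) held at least 1 member and 888 exactly 1. No window held more than 6, a number reached in 6 windows. The variance of the count per window was 1.17 times its mean of 1.01. A ratio of 1 is what independent placement at a constant rate would give. For broader del-cIDR-only regions the ratio was 8.15 (mean 1.94), with up to 38 regions in a window. It was 1.81 for narrow full-length-only regions (mean 0.326) and 1.10 for narrow regions of all 4 lists (mean 0.428). As the means differ, the excess of variance over mean was also divided by the squared mean. This gave 0.166 for members, 3.69 for broader del-cIDR-only, 2.48 for narrow full-length-only and 0.229 for narrow all-4 regions. These ratios describe the 4 lists and were not tested.

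The first of the windows with 6 members was on chromosome 4 between 140 and 141 Mb. Its members began at 140081127, 140232388, 140268825, 140328439, 140623525 and 140648376, and each was 301 bp wide. Enrichment in replicate 1 ranged from 2.25 to 6.77-fold and in replicate 2 from 2.71 to 14.9-fold. The fifth had 4.19 and 14.9-fold in the 2 replicates. The nearest full-length peak to any of them was 8999 bp away. Even in this window the gap from a member to its nearest region was at least 8999 bp.

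The number of members in a window followed the number of full-length peaks only weakly. Windows with 0 to 2 full-length peaks held 0.798 members on average (674 windows), and windows with over 20 held 1.40 (584 windows), 1.75 times as many. Broader del-cIDR-only regions rose from 0.190 to 5.55 over the same windows, 29.2 times as many. The Spearman correlation across windows between members and full-length peaks was 0.192, against 0.608 for broader del-cIDR-only regions and full-length peaks, both as descriptions of windows that share their libraries. Between members and the other del-cIDR peaks it was 0.248. In windows with few full-length peaks, members outnumbered broader del-cIDR-only regions by 538 to 128, and in windows with over 20 the broader regions led by 3242 to 816.

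**Figure D5:**
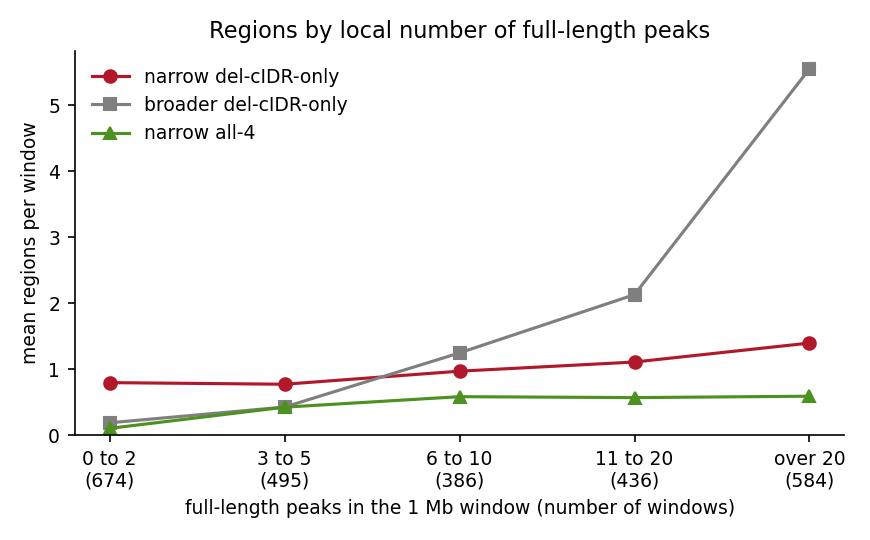
Mean number of narrow del-cIDR-only, broader del-cIDR-only and narrow all-4 regions per 1 Mb window, for windows grouped by their number of full-length peaks (number of windows in parentheses). Narrow del-cIDR-only regions go from 0.798 to 1.40 and broader ones from 0.190 to 5.55, and all-4 regions contain full-length peaks themselves, so their fall to the left is partly built in.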

How the data were processed

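Peaks of the 4 ALKBH5 immunoprecipitates were analysed, 1 list per replicate. MACS2, STAR, cutadapt and UMI-tools are named, with build GRCm39, per the submitters' processing notes. Their versions, settings and any control in peak calling are not given in these sources. The authors deposited per peak a score, a fold enrichment (a ratio), the −log10 of a p-value and of a q-value, and a summit offset. Lists named wt were taken as full-length and lists named KI as del-cIDR, the only other genotype. Peaks carry no strand.

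All peaks were kept. Peaks were merged, classed and measured with Python 3.11.15, pandas 2.3.3 and scipy 1.17.1, and the merging, classing and gap functions were tested on simulated lists. A gap is the number of bases between region ends. Ranks are by −log10 q within a list. Members and lists were chosen with earlier results of these data known. Named regions were the 10 best by mean rank, the 5 with the highest lower enrichment, the 5 farthest from and 5 nearest to a full-length peak, 3 on each side of the width limit, 1 window with the most members, and the mitochondrial members. The scaffold member was named after its values were seen. Intervals are exact (Clopper-Pearson) at 95% and cover counting only. The planned exact permutation test of neighbouring peaks is not reported, since the choice of members used the same lists. Gene lists and sequences were not analysed here. Alternatives were stricter peaks, equal list lengths, other joins and widths, and each replicate left out.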

Additional observations from a re-analysis of the deposited data

How the results depend on the processing

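With the replicate number as a block, the neighbour differences were 2.23 and 4.45 points for replicates 1 and 2, and their mean of 3.34 points equals the unpaired value by construction. The labels do not say that the numbers pair the samples. The transcript and sequence alternatives were not run. The number of members, 2605, stayed within 1.5 times under all alternatives except single del-cIDR lists, which gave 5960 without replicate 1 and 5921 without replicate 2, as fewer lists must hold the peak. Leaving out each library gave 2772 to 5960 members, a median distance to full-length peaks of 38570 to 120388 bp, 56.0 to 79.1% with no region within 10 kb, a median enrichment of 3.73 to 6.21-fold, 7.42 to 7.75% on chromosome 2 and a neighbour difference of 1.59 to 12.5 points. With −log10 q of at least 5 the distance was 95768 bp and the enrichment 7.05-fold. With 4-fold enrichment or more they were 151798 bp and 7.48-fold, 89.1% were isolated and the neighbour difference was -0.142 points. Lists of equal length gave 6.47-fold. A width limit of 310 bp gave 80.1% isolated and 5.90-fold, and 400 bp gave 49471.5 bp, 60.4% and 4.598-fold. Isolation was 93.3% at 1 kb and 26.7% at 100 kb. Among alternatives chosen after seeing the data, isolation was 81.7% for members sharing an end and 82.6% for members of 4-fold peaks beside all peaks. Unknown read numbers limit what a missing full-length peak shows.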

Other observations

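Peaks at the minimum width of their list shared an end to the base outside the narrow del-cIDR-only regions as well. Of 1324 overlapping pairs of such peaks from the 2 del-cIDR lists in other regions, 1317 shared a start or an end (99.5%, exact 95% binomial interval 98.9 to 99.8%). Between the full-length replicates 1097 of 1115 pairs did (98.4%). Across genotypes the count was 892 of 894, 1296 of 1305, 891 of 896 and 1303 of 1310 over the 4 pairs of lists. Starts and ends were again shared about equally, with 530 pairs sharing only the start and 567 only the end between the full-length replicates. The lists differ in minimum width, 243 bp in full-length replicate 2 and 301 bp in del-cIDR replicate 2, and in that pair 649 pairs shared only the start and 654 only the end. A coincidence of peak ends to the base was therefore seen both within and between genotypes. Its source was not tested.

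Narrow regions found in both lists of their genotype and in neither of the other were more numerous for del-cIDR. There were 2605 such regions for del-cIDR (6.05% of all regions) and 851 for full-length (1.98%). Broader regions went the other way, with 5004 for del-cIDR (11.6% of all regions) and 6698 for full-length (15.6%). The del-cIDR-only set took 30.8% and 30.6% of the peaks of 320 bp or less in its 2 lists, and the full-length-only set 13.9% and 8.66%. The minimum widths of the full-length lists, 297 and 243 bp, differ more than those of the del-cIDR lists, and their part in this was not tested.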
